A study of Mus musculus with 2 samples.

Results

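The TNF and TNF receptor superfamily genes were examined as the protein-coding genes whose symbols start with Tnfsf (ligands) or Tnfrsf (receptors). The rule found 32 of 21631 protein-coding genes, 12 ligands and 20 receptors. Their chromatin was read from ATAC-seq, in which the Tn5 transposase cuts accessible DNA, in mast cells grown from mouse bone marrow. The 2 groups were a Dnmt3a knockout (DNMT3A-KO) culture and a wild-type culture from littermates, with 1 library each. Dnmt3a encodes a de novo DNA methyltransferase, and the study asked how its loss relates to mast cell responses. Per the labels, the donors were females aged 3 weeks by one field and 3 to 4 weeks by another, marrow was grown for 4 weeks in IL-3, no stimulus was given, and surface staining found Kit and the IgE receptor alpha chain on over 95% of cells. The labels used here do not say which allele was used or how many mice gave each culture. All coordinates are 1-based on mm10.

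Ligands of this superfamily are mostly membrane proteins that act as trimers and bind receptors with cysteine-rich repeats. Many of the receptors recruit TRAF adaptors and activate NF-kB, while those with a death domain can also start caspase-driven cell death. Mast cells store and release TNF itself, and OX40 ligand, CD30 ligand and 4-1BB on mast cells are known from contacts with T cells. Several loci hold more than 1 member, so that neighbouring genes can lie within reach of the same accessible site.

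A region is 1 peak, or overlapping peaks of both lists joined. It was assigned to a gene when it lay in the gene interval or within 10 kb of it. The lists held 19684 knockout and 17170 wild-type peaks. The summit pileup is the number of overlapping fragments at a peak's summit, as the peak caller placed them from reads of 1 end. Its median was 9 in both lists. Of 10 mast cell marker genes, 9 had a peak in the knockout list and 9 in the wild-type list. The numbers were 5 and 4 of 7 for neutrophil, 3 and 2 of 5 for macrophage, 2 and 1 of 4 for B cell, 3 and 3 of 5 for T cell and 1 and 3 of 3 for basophil markers. Over all protein-coding genes, 55.5% had a peak within 10 kb in the knockout list and 52.3% in the wild-type list. Since each genotype had a single library, no test was possible, and every interval below is a 95% interval that covers counting error only. Accessibility in a bulk culture does not separate a change per cell from a change in the share of cells.

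A peak of either list lay over a listed promoter of 5 members, 5 of the 25 that have an entry (36.6% of all genes with one). These promoters are printed here to show which bases lay inside a called peak. RefSeq promoter entries of GRCm38.p6, 300 bases from 250 before to 50 after the gene start, matched 25 of the 32 members. Tnfrsf10b, Tnfrsf11b, Tnfrsf22, Tnfrsf26, Tnfsf12, Tnfsf4 and Tnfsf9 had no entry. Sequences run 5′ to 3′ on the gene's strand, and capitals mark bases inside a peak of either list. Tnfsf10 (chr3:27316827-27317126, plus strand) and Tnfrsf14 (chr4:154928028-154928327, minus strand) had that peak in the wild-type list only.
Tnfsf10: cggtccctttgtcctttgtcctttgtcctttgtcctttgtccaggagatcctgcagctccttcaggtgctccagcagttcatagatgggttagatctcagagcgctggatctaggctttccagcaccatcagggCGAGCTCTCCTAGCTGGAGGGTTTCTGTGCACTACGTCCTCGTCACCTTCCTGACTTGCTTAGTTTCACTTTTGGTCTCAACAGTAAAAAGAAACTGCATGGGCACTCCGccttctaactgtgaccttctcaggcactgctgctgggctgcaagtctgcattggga
Tnfrsf14: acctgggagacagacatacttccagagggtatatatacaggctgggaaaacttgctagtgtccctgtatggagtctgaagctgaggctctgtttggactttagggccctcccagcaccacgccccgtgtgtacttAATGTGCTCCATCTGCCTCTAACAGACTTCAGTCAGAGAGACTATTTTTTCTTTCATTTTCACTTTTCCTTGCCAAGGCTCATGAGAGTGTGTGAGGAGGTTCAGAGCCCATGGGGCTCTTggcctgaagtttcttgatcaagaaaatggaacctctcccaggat
Tnfsf8 (chr4:63861235-63861534, minus strand), Tnfrsf23 (chr7:143685826-143686125, minus strand) and Tnfrsf21 (chr17:43016305-43016604, plus strand) had a peak there in both lists.
Tnfsf8: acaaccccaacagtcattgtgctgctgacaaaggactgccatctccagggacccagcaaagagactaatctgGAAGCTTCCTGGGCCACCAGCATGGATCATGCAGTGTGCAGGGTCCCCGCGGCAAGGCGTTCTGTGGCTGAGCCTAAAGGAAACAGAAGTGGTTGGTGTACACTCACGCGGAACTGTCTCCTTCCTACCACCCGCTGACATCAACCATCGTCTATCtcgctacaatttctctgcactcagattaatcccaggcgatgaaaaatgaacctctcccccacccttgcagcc
Tnfrsf23: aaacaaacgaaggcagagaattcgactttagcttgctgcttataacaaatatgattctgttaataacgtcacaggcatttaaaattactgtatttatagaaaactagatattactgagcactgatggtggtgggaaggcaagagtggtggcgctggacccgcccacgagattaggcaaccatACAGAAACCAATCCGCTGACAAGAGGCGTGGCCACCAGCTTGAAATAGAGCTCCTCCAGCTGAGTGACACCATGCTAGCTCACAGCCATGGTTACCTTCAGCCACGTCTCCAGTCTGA
Tnfrsf21: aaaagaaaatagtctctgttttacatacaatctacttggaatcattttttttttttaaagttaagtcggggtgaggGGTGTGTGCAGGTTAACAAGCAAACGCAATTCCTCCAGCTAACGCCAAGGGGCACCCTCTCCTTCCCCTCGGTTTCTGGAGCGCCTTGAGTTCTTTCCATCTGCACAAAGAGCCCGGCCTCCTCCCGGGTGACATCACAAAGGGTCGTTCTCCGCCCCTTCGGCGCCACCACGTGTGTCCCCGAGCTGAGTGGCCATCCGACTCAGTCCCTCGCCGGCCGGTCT

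A promoter peak of either list was found at 20.0% of members with an entry (6.83 to 40.7). The 36.6% of all genes with an entry lies inside that interval. The members' promoters held a lower median of CpG dinucleotides, the substrate of Dnmt3a, and a link between CpG and peaks was not tested. A knockout peak covered a promoter of 3 of 25 members (12.0%, exact interval 2.55 to 31.2), against 33.2% of all 17274 genes with an entry, a share just above that interval. A wild-type peak did so at 5 of 25 (20.0%, 6.83 to 40.7), against 31.2%, which lies inside it. Promoter peaks of the knockout list alone were found at 0 of 25 members (0.0%, 0.0 to 13.7), where 5.42% of all genes had one. Those of the wild-type list alone were found at 2 of 25 (8.0%, 0.984 to 26.0), where 3.42% did. Both shares over all genes lie inside the members' intervals. The 29 promoter windows of the members held a median of 7 CpG, against 13 in all 21045 windows. They ranged from 2 at Tnfrsf14 to 43 at Tnfrsf11a, which encodes RANK and had no peak at all. The 5 windows with a peak held 6 (Tnfsf10), 2 (Tnfrsf14), 9 (Tnfsf8), 9 (Tnfrsf23) and 17 (Tnfrsf21) CpG, a median of 9. Over the genome the median was 23 in windows with a peak and 6 in those without.

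Letters of a few factors' motifs were searched on both strands of these windows, and a window counts once however many hits it holds. The E-box letters CACGTG or CATGTG, bound by MITF, were found in 8 of 29 member windows (27.6%) and in 18.9% of all windows. TGANTCA of AP-1 was found in 6 (20.7%, against 7.04%), TGTGGT of RUNX in 6 (20.7%, against 14.7%) and AGATAA or TGATAA of GATA factors in 3 (10.3%, against 15.8%). CCGGAAGT of ETS factors was found in 0 member windows, against 5.2% of all. The AP-1 hits lay in the windows of Tnfrsf8, Tnfrsf9, Tnfsf13, Tnfsf14 and both windows of Tnfsf13b. Those 2 windows overlap and hold 1 AP-1 hit and 1 E-box hit between them, so that each counts in both windows. Of all these hits 1 lay inside a peak: CACGTG in the Tnfrsf21 promoter printed above, whose last base is the gene start. A match describes letters only. No intervals were computed for these shares, which rest on few windows, and their differences from all windows were not tested.

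Across the 32 genes, 42 regions were found: 11 in the knockout list alone, 20 shared and 11 in the wild-type list alone. Knockout-only regions made up 26.2% (13.9 to 42.0), shared regions 47.6% (32.0 to 63.6) and wild-type-only regions 26.2% (13.9 to 42.0). Among all 19084 regions within 10 kb of a protein-coding gene the shares were 27.1%, 56.7% and 16.2%, each within the members' interval. Of the members' 22 unshared regions 50.0% were knockout-only (28.2 to 71.8), against 62.6% of all unshared regions near genes, so the even split did not leave the range that counting error allows.

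**Figure D1:**
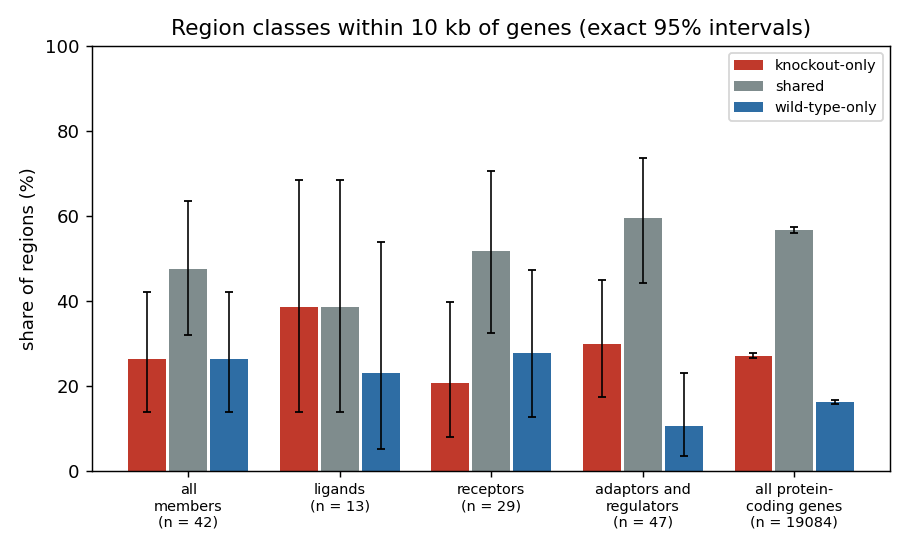
Share of regions (%) that were knockout-only, shared or wild-type-only within 10 kb of all members, ligands, receptors, the adaptors and regulators of these receptors and all protein-coding genes; bars start at 0, error bars are exact 95% binomial intervals and n is the number of regions. Knockout-only regions made up 26.2% at members and 27.1% at all genes, wild-type-only regions 26.2% and 16.2%.

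By gene, 26 members had a region and 6 had none (18.8%, 7.21 to 36.4, against 40.8% of all genes). A knockout peak was found at 21 of 32 members (65.6%, 46.8 to 81.4) against 55.5% of all genes, and a wild-type peak at 24 (75.0%, 56.6 to 88.5), against 52.3%. The share over all genes lies inside the first interval and below the second. The order of these counts depended on the rule. Within 2.5 kb, 17 members had a knockout peak and 16 a wild-type peak. With the superfamily genes of other symbols added, both numbers were 30 of 47 genes. Under the other rules tried, the wild-type count stayed the higher. No share of all genes with a peak was computed for windows other than 10 kb or for the other peak rules. Tnfsf12 and Tnfrsf25 had peaks in the knockout list alone, 2 of 32 (6.25%, 0.766 to 20.8) against 6.93% of all genes. Tnfsf10, Tnfrsf4, Tnfrsf11b, Tnfrsf14 and Tnfrsf19 had them in the wild-type list alone, 5 of 32 (15.6%, 5.28 to 32.8) against 3.67% of all genes. That share lies below the interval, but the 5 genes rest on 6 wild-type peaks with pileups of 5 to 8, and the region of Tnfrsf4 is also one of Tnfrsf18. Unshared regions of 1 kind only were knockout-only at 7 of 32 members, against 17.5% of all genes, and wild-type-only at 6, against 9.68%. Among those 7, Tnfsf12, Tnfsf13 and the readthrough gene Tnfsfm13 draw on the same knockout-only regions, so they are not independent. Both kinds of unshared region were found at 5, against 6.7%. The other 8 members with a region had shared regions only. No share over all genes was computed for that count, so it is not read as a trait of the members. The median was 1 region per gene, as over all genes. The members and their 10 kb flanks held 33.2 regions per Mb, however, against 14.9 over all genes. These counts by gene are therefore not like for like, and the shares of regions are the closer comparison.

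**Figure D2:**
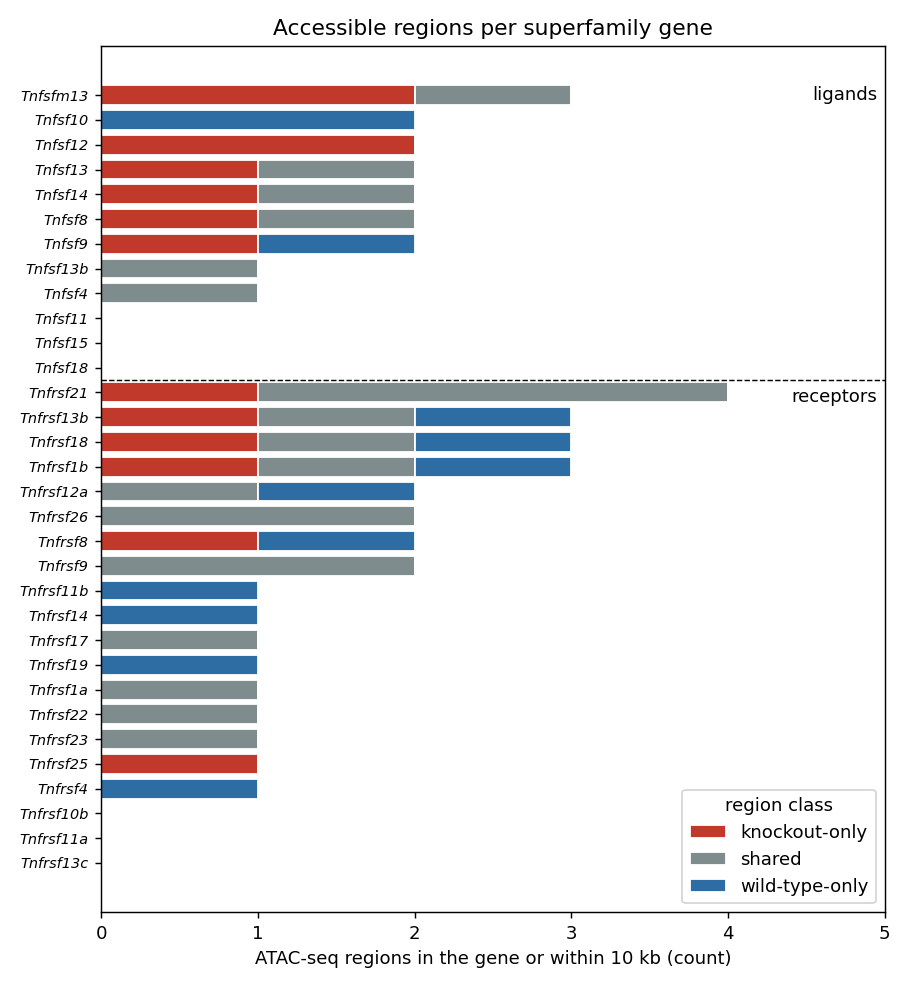
Number of ATAC-seq regions in each superfamily gene or within 10 kb of it, ligands above and receptors below the dashed line, coloured by class; a region near several members is drawn at each. Tnfrsf21 had the most, with 1 knockout-only and 3 shared regions, and 6 genes had none.

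The unshared regions were weak in the list that held them. Their pileups ran from 4 to 10 in the knockout list (median 6) and from 5 to 10 in the wild-type list (median 7). Over all regions of those classes the median was 6 in each list, so low pileups were not particular to the members. A pileup of 4 has an exact Poisson interval of 1.09 to 10.2 and one of 10 an interval of 4.8 to 18.4, so these intervals overlap. The members had 0 of 11 knockout-only regions and 0 of 11 wild-type-only regions with a −log10 q of at least 10, against 10.7% and 5.92% over all regions of those classes. With only 11 regions in each class, these counts of 0 are not read as a trait of the members. A region missing from a list was not called there, and its pileup in that library is not in the files. A peak of the other list lay within 200 bp of 4 of the 22 unshared regions, against 9.78% of all unshared regions, and within 1000 bp of 7, against 15.1%.

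Among ligands, 5 regions were knockout-only (38.5%, 13.9 to 68.4), 5 shared (38.5%, 13.9 to 68.4) and 3 wild-type-only (23.1%, 5.04 to 53.8). The shares near all genes (27.1%, 56.7% and 16.2%) lie inside these intervals. Tnfsf13b encodes BAFF, a survival factor of B cells. Its shared region at chr8:10004963-10005260, upstream of the gene, had the highest −log10 q of the member regions in both lists and the highest knockout pileup, while 2 member regions had a higher wild-type pileup. The pileup there was 27 in the knockout library and 18 in the wild-type library, a ratio of 1.5 (interval 0.796 to 2.89), which includes 1. By −log10 q it stood at the 98.1 percentile of the knockout list (30.4) and the 91.2 percentile of the wild-type list (19.5). It lay 1207 bp upstream of the nearer listed start, and no promoter window of the gene was covered.

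Tnfsf4 encodes OX40 ligand, a co-stimulator of T cells that mast cells are known to carry. Its 1 region, inside the gene at chr1:161396454-161396696, was shared, with a pileup of 10 in the knockout library and 10 in the wild-type library. Tnfsf8 encodes CD30 ligand. Its shared promoter region (chr4:63861307-63861462) had a pileup of 9 in the knockout and 10 in the wild-type library. That region lay inside the gene interval, with its nearer edge 23 bp upstream of the listed start. A second site inside Tnfsf8 (chr4:63842313-63842412) was knockout-only, with a pileup of 6.

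Tnfsf10 encodes TRAIL, a ligand that can trigger cell death. Both of its regions were wild-type-only, 1 over the promoter printed above (chr3:27316961-27317070) and 1 inside the gene (chr3:27330879-27330983), each with a pileup of 6. No knockout peak lay nearer than 58209 bp to the promoter region. The 2 regions stood at the 14.9 and 23.8 percentiles of the wild-type list, among its weaker peaks.

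Tnfsf12 (TWEAK) and Tnfsf13 (APRIL, a B cell ligand) are neighbours on chromosome 11, and their readthrough gene Tnfsfm13 overlaps each of them. Of the 3 regions there, 1 was assigned to all 3 genes and each of the others to Tnfsfm13 and 1 more. A knockout-only region at chr11:69695898-69695997 (pileup 6) lay inside Tnfsf12 and Tnfsfm13, 101 bp downstream of the listed start of Tnfsfm13. Another at chr11:69681990-69682151 (pileup 7) lay 426 bp from Tnfsf13 but inside Senp3, a neighbouring gene. The shared region assigned to Tnfsf13 and Tnfsfm13 (chr11:69672362-69672657, pileup 25 in the knockout and 21 in the wild-type library) overlapped Eif4a1, 9920 bp away, and was the member region nearest to the 10 kb limit. Just beyond that limit lay a knockout-only region 10202 bp from Tnfrsf9 (pileup 10) and a shared one 10440 bp from Tnfrsf19 (pileup 11 in the knockout and 9 in the wild-type library).

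Tnfsf14 encodes LIGHT, a T cell co-stimulator. It had a shared region upstream (chr17:57198343-57198582, pileup 11 in the knockout and 12 in the wild-type library) and a knockout-only region 682 bp beyond its other end (chr17:57188693-57188792, pileup 5). Tnfsf9 encodes 4-1BB ligand. A knockout-only region (chr17:57096266-57096365, pileup 5) and a wild-type-only region (chr17:57096435-57096571, pileup 8) lay 69 bases apart, over 8 kb from the gene. When summits within 200 bp counted as shared, 1 knockout-only and 1 wild-type-only member region fewer were counted and 1 shared region more. Tnfsf11 (RANKL, the osteoclast factor), Tnfsf15 (TL1A) and Tnfsf18 (GITR ligand) had no region in either list.

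**Figure D3:**
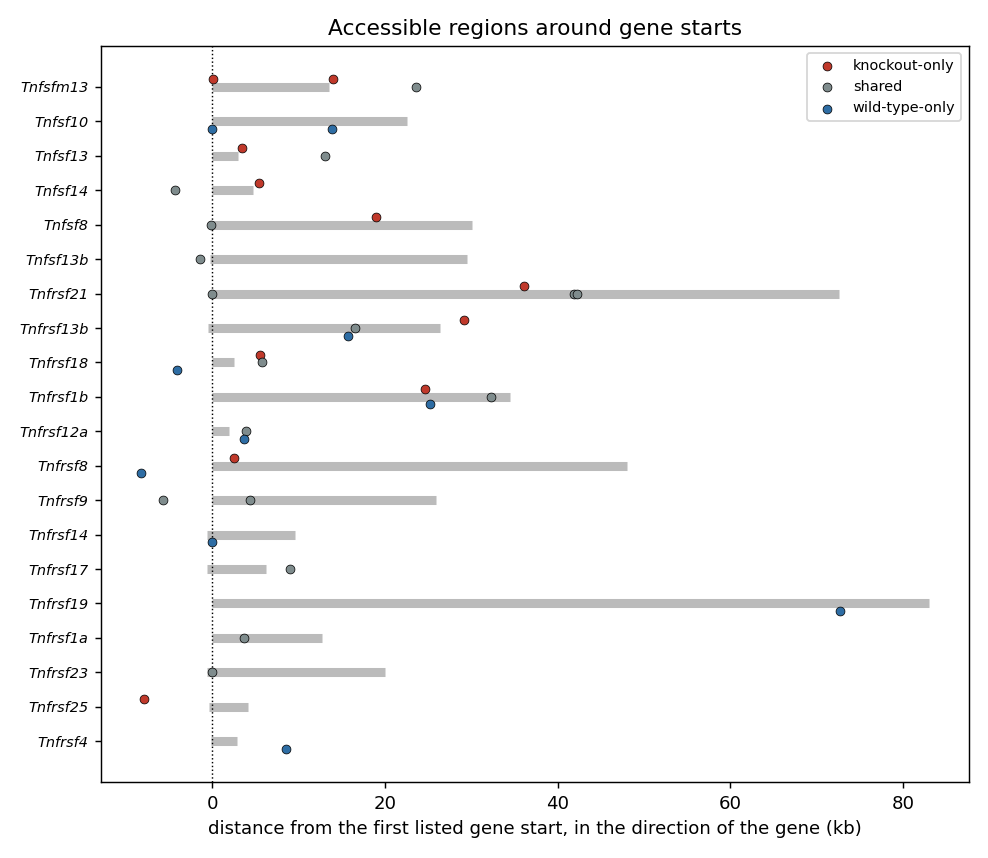
Regions of members that have a promoter entry and at least 1 region, by distance (kb) from the first listed gene start in the direction of the gene, ligands above receptors; grey bars are gene intervals, and points are region centres, shifted up for knockout-only and down for wild-type-only regions. Tnfsf10, Tnfsf8, Tnfrsf21, Tnfrsf14 and Tnfrsf23 had a region over the promoter window at 0 kb, and the knockout-only region at the start of Tnfsfm13 lay just inside the gene.

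Receptors had 6 knockout-only (20.7%, 7.99 to 39.7), 15 shared (51.7%, 32.5 to 70.6) and 8 wild-type-only regions (27.6%, 12.7 to 47.2). Here too the shares near all genes (27.1%, 56.7% and 16.2%) lie inside the intervals. The 2 receptors of TNF both held a shared region inside the gene and none at the promoter. Tnfrsf1a encodes TNFR1, the death-domain receptor of TNF. Its region (chr6:125353382-125353524) had a pileup of 9 in the knockout library and 4 in the wild-type library, the largest ratio among members at 2.25, with an interval of 0.628 to 10.0. The wild-type peak was near the bottom of its list, at the 0.67 percentile. Tnfrsf1b encodes TNFR2, which lacks a death domain. Its shared region (chr4:145214533-145214650) had a pileup of 5 in the knockout and 6 in the wild-type library. A knockout-only region (chr4:145222096-145222245, pileup 5) and a wild-type-only region (chr4:145221577-145221681, pileup 8) lay 414 bp apart farther inside Tnfrsf1b.

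Of the co-stimulatory receptors, Tnfrsf9 had the site with the highest −log10 q and pileup in both lists. It encodes 4-1BB, also called CD137. Its region inside the gene (chr4:150924271-150924734) had a pileup of 21 in the knockout and 20 in the wild-type library, a ratio of 1.05 (0.542 to 2.04). That site lay between its 2 listed starts, 3265 bp upstream of the second. An upstream region (chr4:150914377-150914651) was also shared, with 14 in the knockout and 12 in the wild-type library.

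Tnfrsf4 (OX40) and Tnfrsf18 (GITR) lie side by side on chromosome 4, and a wild-type-only region (chr4:156022193-156022292, pileup 6) lay between them, 5580 bp from Tnfrsf4 and 4030 bp from Tnfrsf18. Tnfrsf18 also had a shared region beyond its other end (chr4:156032001-156032205, pileup 13 in the knockout and 14 in the wild-type library). A knockout-only region (chr4:156031800-156031913, pileup 10) lay 125 bases from the wild-type peak of that shared region. Tnfrsf8 (CD30) had a knockout-only region inside the gene (chr4:145312593-145312697, pileup 7) and a wild-type-only region 8214 bp upstream (chr4:145323378-145323515, pileup 7). Tnfrsf14 encodes HVEM, the receptor of LIGHT. Its 1 region (chr4:154928072-154928192, pileup 8) covered the listed start and was wild-type-only, with the nearest knockout peak 16172 bp away. Tnfrsf25 (DR3, the receptor of TL1A) had 1 knockout-only region (chr4:152107967-152108202, pileup 8), 7326 bp away and inside Plekhg5. Chromosome 4 held 9 members in all, with 5 knockout-only, 5 shared and 4 wild-type-only regions.

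The receptors of BAFF and APRIL, known mainly from B cells, differed among themselves. Tnfrsf13b (TACI) had a shared region inside the gene (chr11:61143245-61143403) with a pileup of 15 in the knockout and 15 in the wild-type library. A wild-type-only region lay 674 bases from it (chr11:61142461-61142570, pileup 10), and a knockout-only region 2718 bp beyond the gene lay inside Usp22 (chr11:61155888-61155992, pileup 6). Tnfrsf17 (BCMA) had 1 shared region outside the gene, at an end of Snx29 (chr16:11322798-11322963), with a pileup of 9 in the knockout and 5 in the wild-type library, a ratio of 1.8 (0.542 to 6.84). Tnfrsf13c (BAFF receptor) had none.

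The TRAIL decoy receptor locus of the mouse on chromosome 7 was open in both libraries. Tnfrsf22, Tnfrsf23 and their neighbour Tnfrsf26 had 4 regions, and all were shared. At an end of Tnfrsf22 (chr7:143649606-143649747) the pileup was 5 in the knockout and 5 in the wild-type library, and at the promoter of Tnfrsf23 printed above (chr7:143685786-143685943) it was 9 in the knockout and 8 in the wild-type library. Tnfrsf26 had a region 2034 bp away (chr7:143605470-143605651) with 10 in the knockout and 5 in the wild-type library, a ratio of 2.0 (0.623 to 7.46), and another at an end of Cars (chr7:143600055-143600312) with 11 in the knockout and 8 in the wild-type library. Tnfrsf10b, the signalling TRAIL receptor, had no region.

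Tnfrsf21 encodes DR6, a death-domain receptor, and had the most regions. Its promoter (chr17:43016381-43016616) had a pileup of 12 in the knockout and 13 in the wild-type library. Inside the gene, 2 neighbouring shared sites (chr17:43058372-43058521 and chr17:43058727-43058860) each had a pileup of 7 in the knockout library, against 7 and 6 in the wild-type library. The knockout-only site (chr17:43052634-43052733) had a pileup of 4, the lowest of the unshared regions.

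Tnfrsf12a encodes Fn14, the receptor of TWEAK. Its shared region (chr17:23673486-23673664, pileup 13 in the knockout and 12 in the wild-type library) and a wild-type-only region beside it (chr17:23673731-23673877, pileup 7) overlapped Thoc6 and Hcfc1r1, 1781 and 1568 bp from Tnfrsf12a. Tnfrsf11b encodes osteoprotegerin, the soluble decoy of RANKL, and had 1 wild-type-only region inside the gene (chr15:54251616-54251720, pileup 5). Tnfrsf19, which encodes TROY, also had 1 wild-type-only region inside the gene (chr14:60974138-60974262, pileup 7). By −log10 q (8.77) that was the strongest wild-type-only region of the members, at the 52.2 percentile of its list. Tnfrsf11a (RANK) had no region.

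At the 20 shared regions the median ratio of knockout to wild-type pileup was 1.07, against 1.09 over all 12871 shared regions. The ratio was above 1 at 11 of 20, equal at 4 and below 1 at 5. At least 1.5-fold higher in the knockout library were 4 of 20 (20.0%), at Tnfrsf1a, Tnfrsf26, Tnfrsf17 and Tnfsf13b, against 16.2% of all shared regions. At least 1.5-fold higher in the wild-type library were 0 of 20, against 6.5%. Of the 20 intervals, 0 lay above 1. Pileups were not scaled for library depth, which the files do not give.

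**Figure D4:**
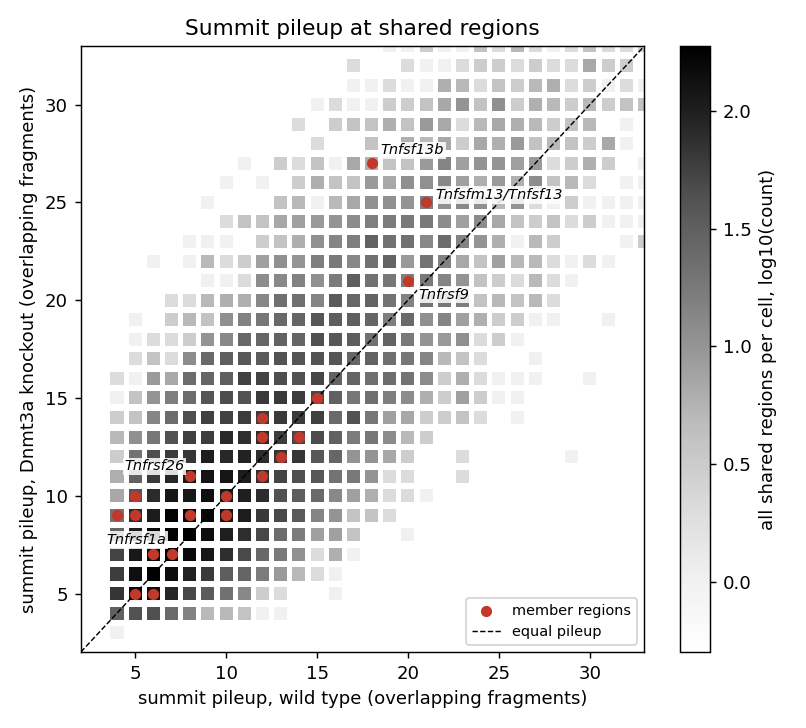
Summit pileup (overlapping fragments) in the Dnmt3a knockout library (vertical) against the wild-type library (horizontal); red points are the 20 shared member regions, some of which coincide, and grey squares count all shared regions on a log10 scale, for the 98.3% with both pileups at most 33. Tnfsf13b, at 27 in the knockout and 18 in the wild-type library, was the highest member in the knockout library, and the members scatter within the cloud of all shared regions.

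Of the 42 regions, 22 overlapped a member, 8 overlapped only another protein-coding gene and 12 overlapped none. A gene end lay within 1 kb of 16 (38.1%), against 35.7% of all regions. This was so for 3 of 11 knockout-only (27.3%), 9 of 20 shared (45.0%) and 4 of 11 wild-type-only regions (36.4%), against 24.7%, 43.8% and 27.5% over all regions.

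Superfamily genes with other symbols formed a list of 15, with 3 knockout-only, 10 shared and 1 wild-type-only region. Shared regions were 71.4% (41.9 to 91.6), against 56.7% of regions near all genes. Knockout-only regions were 21.4% (4.66 to 50.8), against 27.1%, and wild-type-only regions 7.14% (0.181 to 33.9), against 16.2%. Each of these shares over all genes lies inside the interval of the list. Tnf, Lta and Ltb lie together on chromosome 17, and a shared region in Tnf (chr17:35200533-35200739) had a pileup of 13 in the knockout and 13 in the wild-type library. Ltb also had a wild-type-only region 7577 bp away (pileup 8). Relt, an orphan receptor gene, had 5 shared regions with pileups of 9 to 22 in the knockout and 4 to 20 in the wild-type library. Fasl had 2 shared regions, with 10 and 5 in the knockout and 5 and 8 in the wild-type library, and the X-linked Eda2r had 2. Knockout-only regions lay over Cd27 (pileup 5), Ltbr (5), the lymphotoxin beta receptor gene, and Ngfr (4). Cd40lg, Cd70, Eda, Cd40, Fas and Edar had no region (40.0% of the list, against 40.8% of all genes).

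Below the receptors, all 22 listed adaptors and regulators had a knockout peak, against 55.5% of all genes, and 20 (90.9%) had a wild-type peak, against 52.3%. They had 14 knockout-only, 28 shared and 5 wild-type-only regions. Knockout-only regions were 29.8% (17.3 to 44.9) and wild-type-only regions 10.6% (3.55 to 23.1), again with the shares over all genes (27.1% and 16.2%) inside the intervals. Knockout-only regions were found at 13 genes: Traf1, Traf3, Traf4, Traf5, Tradd, Ripk1, Cflar, Casp8, Cyld, Tank, Rnf31, Sharpin and Otulin. Wild-type-only regions were found at 5 of these: Traf5, Tradd, Ripk1, Cflar and Casp8. Of the 22 genes, 8 thus had knockout-only and no wild-type-only regions, against 17.5% of all genes, and 5 had both, against 6.7%. The listed genes held a median of 2 regions each, against 1 over all genes, and 38.8 regions per Mb, against 14.9. Counts by gene are therefore not like for like, and the shares of regions above are the closer comparison. By −log10 q the strongest unshared regions lay inside the death protease gene Casp8 (chr1:58797448-58797621, −log10 q 11.8, pileup 11), near Rnf31 but inside Emc9 (11.5, pileup 10) and inside the adaptor gene Traf1 (10.3, pileup 9), all of them knockout-only. Shared regions over an end of Map3k14, the NIK kinase gene, and of Cyld, a deubiquitinase gene, had pileups of 25 and 22 in the knockout and 25 and 30 in the wild-type library.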

How the data were processed

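Open chromatin was measured by ATAC-seq in 1 Dnmt3a knockout and 1 wild-type culture. Per the labels' protocols, nuclei were prepared with 0.1% Igepal and sequenced on 1 side over 50 bp, at a stated depth of 10 M reads. The submitters' processing notes name Trimmomatic, Bowtie2, MACS2 and the builds mm10 and GRCm38. Versions, settings and any Tn5 shift are not given in the sources, and a shift would move peak edges by a few bases. The authors deposited 1 peak list per library, with a score (10 times the −log10 q-value, cut to a whole number), a ratio (fold enrichment over local background), a p-value and a q-value as −log10, and a summit position. These are the authors' own values and rank peaks within a list.

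The deposited fold and −log10 p were solved for a whole-number summit pileup, assuming a pseudocount of 1 in the fold and a Poisson p (100% of peaks recovered, tolerance 0.001 in −log10 p). Peaks of the 2 lists overlapping by at least 1 bp were joined into regions. Genes came from RefSeq GRCm38.p6 (chromosomes 1 to 19 and X), promoter sequences from RefSeq entries of the same build, and no genome sequence was used. Shares have exact Clopper-Pearson intervals, pileups exact Poisson intervals, and pileup ratios exact conditional binomial intervals. Every member with a region is named. Members, lists and motifs were chosen with earlier results of these data known. Scripts ran in Python 3.11.15 with SciPy 1.17.1, pandas 2.3.3 and NumPy 2.4.6. The steps were tested on simulated peaks.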

Additional observations from a re-analysis of the deposited data

How the results depend on the processing

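No paired analysis was possible because only 1 knockout and 1 wild-type library were analysed here. Over 11 alternatives the shared share of member regions ran from 45.2% to 54.1% and the knockout-only share of unshared regions from 35.3% to 54.3%, all inside their exact intervals. Knockout-only regions numbered 6 with equal numbers of peaks in both lists (against 11 wild-type-only), 5 within the gene interval alone, 7 within 2.5 kb, 7 where the nearest gene had to be a member, and 25 within 50 kb. Wild-type-only regions numbered 6 within the gene interval alone and 21 within 50 kb. Members with a peak numbered 12 in the knockout and 13 in the wild-type list within the gene interval alone. The distance rules set these shifts by the window they count, and equal numbers by dropping weak knockout peaks. No share over all regions was computed with equal numbers of peaks, so the split of 6 against 11 is not read as a trait of the members. Of the other 57 of 66 values, shares stayed inside their intervals and counts moved by at most 1.5-fold. Members with a wild-type peak within 2.5 kb, 16 against 24, were at that limit, and 17 members then had a knockout peak. Leaving out regions of neighbouring genes, an alternative chosen after seeing the data, gave 8 knockout-only, 16 shared and 10 wild-type-only regions. Low pileups limit every unshared call.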
